A study of Sus scrofa with 15 samples.

Results

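The genes described here were 10 amino acid transporters of liver (SLC7A1, SLC7A2, SLC7A5, SLC7A7, SLC3A2, SLC38A2, SLC38A3, SLC38A4, SLC1A4 and SLC1A5). They were taken from the count table by symbol. Each of the 10 had 1 row among the 31908 pig genes of the table, and all 10 were among the 12774 genes kept by the low-count filter and tested. The question was whether their mRNA differed between the liver of piglets given lipopolysaccharide (LPS, a cell wall component of Gram-negative bacteria) and that of controls. All animals were male crossbred piglets (Duroc x Large White x Landrace) in the growing phase. The LPS group was injected intraperitoneally with 80 μg/kg LPS, the control (CON) group with sterile saline, and the liver was taken 4 h later. Each group gave 3 input libraries of polyadenylated, fragmented RNA that had not been exposed to the m6A antibody. These are libraries of whole liver tissue, so fewer cells of a type and less RNA per cell cannot be told apart in any value below.

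The liver takes up amino acids from portal blood for protein synthesis, gluconeogenesis, urea formation and the export of plasma proteins, and it exports glutamine and other amino acids again. The solute carriers that do this belong to a few families. SLC7A1 and SLC7A2 are the uniporters of arginine, lysine and ornithine known as CAT-1 and CAT-2. SLC7A5 (LAT1) and SLC7A7 (y+LAT1) are exchangers that reach the membrane only as a heterodimer with the glycoprotein encoded by SLC3A2 (4F2hc, CD98). SLC38A2 and SLC38A4 carry small neutral amino acids with sodium (system A), SLC38A3 carries glutamine, histidine and asparagine (system N), and SLC1A4 and SLC1A5 (ASCT1 and ASCT2) exchange alanine, serine, cysteine and, for SLC1A5, glutamine.

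Total counts ran from 5927348 to 10351491 in the CON libraries and were 4348478, 5502438 and 19967417 in LPS replicates 1, 2 and 3. Counts were scaled by the TMM method and divided by the scaled library size, giving CPM. Where 3 values follow each other below, they are those of replicates 1, 2 and 3. Across all tested genes, LPS replicate 2 correlated with the CON libraries at 0.923 to 0.945 and with LPS replicates 1 and 3 at 0.907 and 0.852, so it lay nearer to the controls. Results below are therefore also given without it, a choice made among alternatives that leave out each library in turn. As it was chosen for lying near the controls, leaving it out favours larger differences between the groups. Over all tested genes the number of calls, by the rule given below, went from 7 to 982. Calls made without it are therefore no separate support for a difference. Libraries of one group were not copies of each other (chi-square over sampling noise of at least 51.8 per gene), and each counted as 1 sample. The labels do not say whether each library came from a separate animal, and p-values measure only the spread between these libraries.

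The clearest differences were a higher level of SLC7A2 and a lower level of SLC38A4 in all 3 LPS libraries, and a lower level of SLC1A4 in 2 of them. None of the 10 transporters passed the call, which was a Benjamini-Hochberg adjusted p below 0.05 over all tested genes with a fold change above 1.5 in edgeR's quasi-likelihood test. Over all tested genes the same rule called 7 genes higher (0.0548%) and 0 lower (0%). At an unadjusted edgeR p below 0.05, 1 member was higher (SLC7A2) and 1 lower (SLC38A4) in the LPS group, against 6.18% and 6.33% of all tested genes, so the share of members is near the background. DESeq2 and limma-voom also called 0 of the 10. Over all its tested genes DESeq2 called 1.91% higher and 0.995% lower, and limma-voom called 2 of 12774 higher and 0 lower. At such shares 0 of 10 is near the background and does not set the members apart. Of the 10 members, 5 had a log2 fold change above 0 and 5 below 0. Their median was 0.09, against 0.01 over all tested genes. The CPM of 1 member (SLC7A2) lay higher in every LPS library than in any CON library, and that of 1 member (SLC38A4) lay lower. Of all tested genes, 6.52% were separated upward and 9.80% downward in this way.

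**Figure D1:**
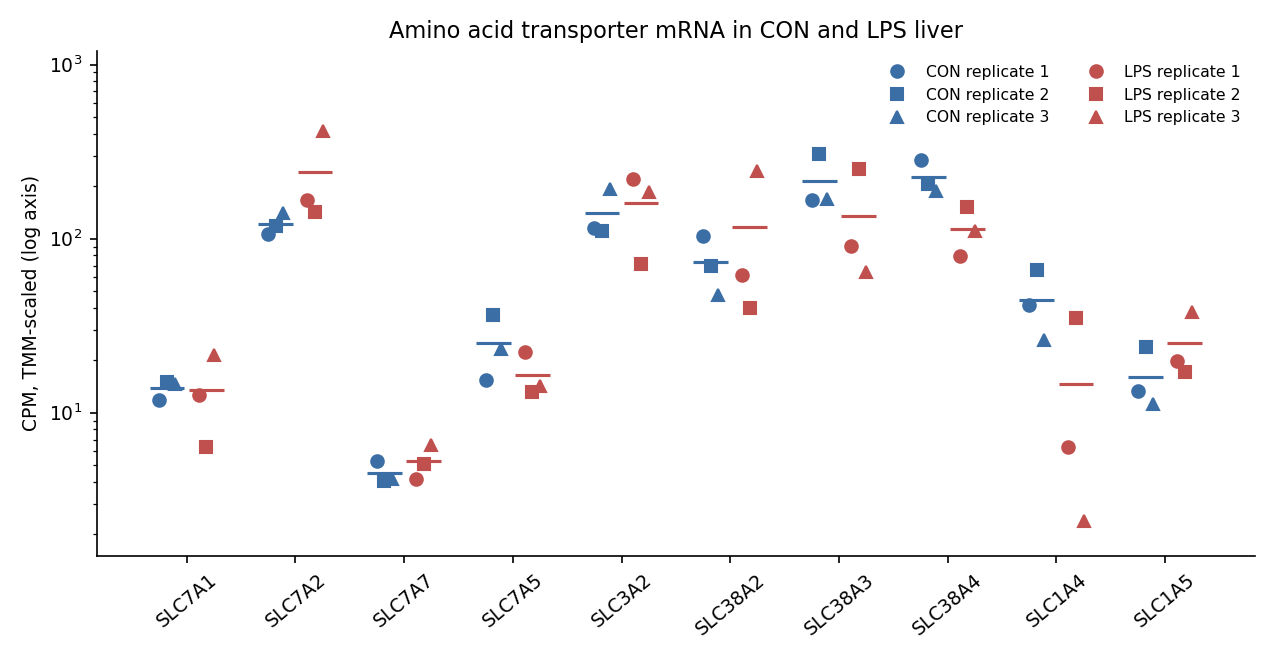
TMM-scaled CPM on a log axis for each transporter (x axis) in the 3 CON libraries (blue) and the 3 LPS libraries (red). Marker shape gives the replicate number and the bar is the group mean. The LPS values of SLC7A2 lie above the CON values, those of SLC38A4 lie below them, and those of SLC1A4 spread from 2.39 to 35.0 CPM.

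Among the cationic amino acid transporters, the libraries separated for SLC7A2 but not for SLC7A1. SLC7A2 (ENSSSCG00000006987, chromosome 17 from 5122265 to 5271849, plus strand, in coordinates of the count table, whose pig genome build is not stated) had 106, 118 and 140 CPM in CON replicates 1, 2 and 3. The LPS replicates had 167, 142 and 414 CPM. Every LPS value was above every CON value, but the gap between CON replicate 3 and LPS replicate 2 was small, and LPS replicate 3 stood far above the others. The means were 121 ± 17 and 241 ± 151 CPM (SD, n = 3 per group). The fitted difference on the log2 scale was 0.99 (SE 0.43, edgeR adjusted p = 0.388), a fold of 1.99. Without LPS replicate 3 it dropped to 0.36 (SE 0.32), and without LPS replicate 2 it was 1.27 (edgeR adjusted p = 0.0863), so LPS replicate 3 decides its size. SLC7A1 (ENSSSCG00000029456, chromosome 11 from 6538055 to 6596878, minus strand) had 11.9, 15.0 and 14.5 CPM in CON. It had 12.7, 6.38 and 21.4 CPM in LPS, which lay within, below and above the CON range. Its log2 fold change was -0.02 (SE 0.44, edgeR adjusted p = 0.992), and its sign changed with the scaling, being 0.02 with RLE factors.

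For the heterodimeric exchangers and their shared subunit, the groups overlapped in every case. SLC3A2 (ENSSSCG00000022404, chromosome 2 from 8892089 to 8919072, minus strand) had 115, 110 and 193 CPM in CON and 220, 71.7 and 186 CPM in LPS replicates 1, 2 and 3. LPS replicate 1 was the highest of the 6 libraries and LPS replicate 2 the lowest. Its log2 fold change was 0.19 (SE 0.44, edgeR adjusted p = 0.893). Leaving out LPS replicate 1 gave -0.10. SLC7A5, which imports leucine and other large neutral amino acids, lies on chromosome 6 from 1545940 to 1574288 (ENSSSCG00000032996, plus strand). It had 15.4, 36.6 and 23.1 CPM in CON and 22.2, 13.1 and 14.2 CPM in LPS. LPS replicates 2 and 3 were below all CON libraries, whereas LPS replicate 1 lay within the CON range. The log2 fold change was -0.60 (SE 0.40, edgeR adjusted p = 0.568).

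SLC7A7, the exchanger that releases cationic amino acids from the cell, had the lowest level of the 10, with 26 to 59 counts in the CON libraries and 19 to 96 in the LPS libraries. It had 5.27, 4.06 and 4.15 CPM in CON and 4.14, 5.07 and 6.55 CPM in LPS. The fitted difference on the log2 scale was 0.24 (SE 0.38, edgeR adjusted p = 0.831). Its annotated span (ENSSSCG00000002041, chromosome 7 from 76144113 to 76236873, plus strand) overlaps 5 genes on the other strand. Of its 4499 exonic bases, 2592 are shared with OXA1L, 201 with MMP14 and 59 with REM2. Whether the count used strand is not stated, so its level is uncertain. The other members overlap no annotated gene, except for SLC3A2, whose span holds 1 gene with at most 1 count per library and no shared exonic base.

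The 3 SLC38 carriers differed in the direction of their fold change. SLC38A4 (ENSSSCG00000026597, chromosome 5 from 77411610 to 77489326, minus strand) had 282, 206 and 188 CPM in CON replicates 1, 2 and 3. In the LPS replicates it had 79.6, 152 and 110 CPM. All LPS values were below all CON values, with LPS replicate 2 the nearest to the controls. The means were 225 ± 50 and 114 ± 36 CPM (SD, n = 3 per group), and the difference on the log2 scale was -0.99 (SE 0.35, edgeR adjusted p = 0.294), that is 1.98-fold lower, and it was the member with the smallest edgeR p. Its log2 fold change stayed between -1.24 and -0.78 over the 13 alternatives, none of which called it.

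SLC38A2 lies 284 kb from SLC38A4 on the same strand of chromosome 5 (ENSSSCG00000000808, from 77113493 to 77127650), with 2 annotated genes between them. It had 104, 69.2 and 47.4 CPM in CON and 62.1, 39.8 and 246 CPM in LPS. LPS replicate 3 alone exceeded the CON range, at 3.34 times the CON mean, while LPS replicate 2 lay below it. The log2 fold change was 0.66 (SE 0.63, edgeR adjusted p = 0.706). Leaving out LPS replicate 3 gave -0.51 (SE 0.39), so the direction rests on that library. SLC38A3 (ENSSSCG00000011397, chromosome 13 from 32683191 to 32704535, plus strand) had 166, 307 and 168 CPM in CON. It had 91.1, 251 and 64.0 CPM in LPS. LPS replicates 1 and 3 were below all CON libraries, whereas LPS replicate 2 lay within their range. The fitted difference on the log2 scale was -0.66 (SE 0.52, edgeR adjusted p = 0.638). Without LPS replicate 2 the value was -1.46 (edgeR adjusted p = 0.0543).

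SLC1A4 had the lowest log2 fold change of the 10 and the widest spread within the LPS group. SLC1A4 (ENSSSCG00000028282, chromosome 3 from 76938105 to 76970508, minus strand) had counts of 463, 422 and 264 for CON and of 29, 214 and 35 for LPS. After scaling, CON had 41.4, 65.9 and 26.1 CPM and LPS 6.32, 35.0 and 2.39 CPM. LPS replicate 3, the deepest library, was the lowest at 0.0537 times the CON mean, and LPS replicate 1 was at 0.142 times that mean. LPS replicate 2 lay within the CON range. The gene's log2 fold change was -1.62 (SE 0.83, edgeR adjusted p = 0.470). Without LPS replicate 2 the value was -3.43 (SE 0.57, edgeR adjusted p = 0.00686). SLC1A4 was then the only member called, where edgeR called 3.45% of all tested genes lower and 3.76% higher. Without the filter on low counts edgeR also called it with all 6 libraries (adjusted p = 0.00239), a fit that called 1.48% of genes lower. The log2 fold change was then -1.65, close to that with the filter, but its SE was 0.40 against 0.83. That call therefore rests on the smaller SE and not on a larger difference, and the spread of the LPS libraries was the same. Over all alternatives its edgeR adjusted p reached 0.810, without CON replicate 2. SLC1A5 (ENSSSCG00000003105, chromosome 6 from 52647432 to 52661459, minus strand) had 13.3, 23.8 and 11.2 CPM in CON. It had 19.8, 17.2 and 37.8 CPM in LPS, of which only LPS replicate 3 was above the CON range. The log2 fold change was 0.65 (SE 0.42, edgeR adjusted p = 0.563).

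**Figure D2:**
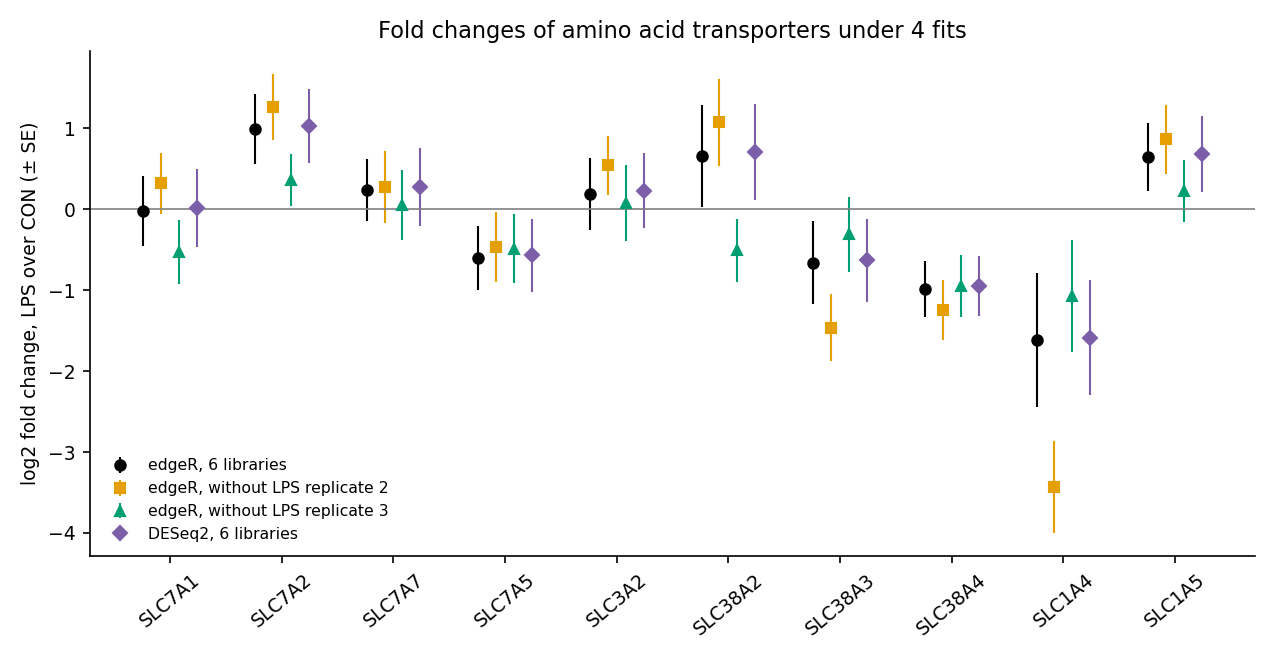
Log2 fold change of LPS over CON with its standard error (y axis) for each transporter (x axis) in edgeR with 6 libraries (black), without LPS replicate 2 (orange), without LPS replicate 3 (green) and in DESeq2 (purple). SLC1A4 goes from -1.62 to -3.43 without LPS replicate 2, SLC38A2 changes sign without LPS replicate 3, and SLC38A4 stays below 0 in each fit.

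To compare levels between genes, CPM was divided by the exonic length of the gene in kb. In the CON group the order was SLC3A2 (64.9 ± 21.5 CPM per kb), SLC38A3 (37.2 ± 14.1), SLC38A4 (16.3 ± 3.6), SLC38A2 (15.7 ± 6.1), SLC7A2 (13.3 ± 1.9), SLC1A4 (8.44 ± 3.81), SLC1A5 (5.62 ± 2.35), SLC7A5 (3.15 ± 1.35), SLC7A1 (2.19 ± 0.27) and SLC7A7 (1.00 ± 0.15), each as mean ± SD with n = 3. Of the neighbours in this order, only SLC38A3 and SLC38A4, and SLC7A1 and SLC7A7, had ranges that did not overlap. In the LPS group SLC3A2 was again first (74.1 ± 36.2 CPM per kb) and SLC7A7 last (1.17 ± 0.27). SLC7A2 was the second of the LPS order at 26.5 ± 16.5 CPM per kb and the fifth of the CON order. SLC38A4 was the third in the CON order and the sixth in the LPS order, at 8.22 ± 2.61 CPM per kb. In the LPS order the ranges of all neighbours overlapped, except for SLC7A5 and SLC7A7, so most of the order is within the spread of the libraries. The last place of SLC7A7 in both orders is uncertain. Of its 4499 exonic bases, 2592 are shared with OXA1L on the other strand, and how reads there were counted is not stated.

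The summed level of the 10 transporters was 154, 176 and 173 CPM per kb in CON and 169, 129 and 224 in LPS, so the sums overlapped. As a share of this sum, which does not depend on library scaling, SLC7A2 held 7.57%, 7.35% and 8.87% in the CON replicates. It held 10.8%, 12.2% and 20.3% in LPS, each above the CON libraries. SLC3A2 held 34.8%, 29.2% and 51.9% in CON and 60.4%, 25.9% and 38.7% in LPS. It took the largest share in all libraries except CON replicate 2 and LPS replicate 2, where SLC38A3 held more, at 30.4% and 34.0%. SLC1A4 held 2.86% to 7.10% of the sum in the CON group and 0.709%, 5.17% and 0.203% in LPS replicates 1, 2 and 3. SLC38A2 held 23.4% in LPS replicate 3 and 5.84% to 14.4% in the other libraries.

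**Figure D3:**
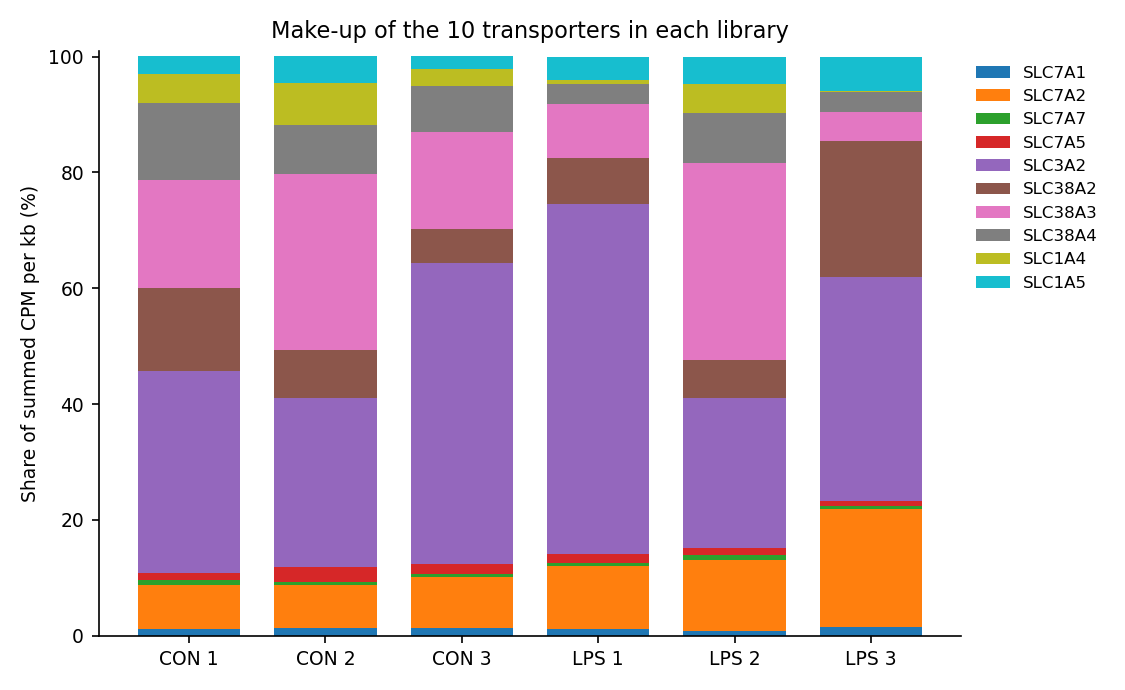
Share of the summed CPM per kb of the 10 transporters (y axis, percent) held by each gene (colour) in the 6 libraries (x axis). SLC7A2 takes 7.35% to 8.87% in the CON libraries and 10.8% to 20.3% in the LPS libraries, and SLC1A4 is almost invisible in LPS replicate 3 (0.203%).

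For most members the LPS libraries lay further apart than the CON libraries. The same held over all tested genes, where pairs of CON libraries correlated at 0.943 to 0.953 and pairs of LPS libraries at 0.852 to 0.907. The ratio of the highest to the lowest CPM within a group was larger in the LPS group for 9 of the 10 members, the exception being SLC7A5. It reached 14.7 for SLC1A4, 6.18 for SLC38A2 and 3.92 for SLC38A3 in the LPS group, against 2.53, 2.19 and 1.85 in the CON group. LPS replicate 3 lay within the CON range for 1 of the 10 members (SLC3A2), LPS replicate 1 for 5 and LPS replicate 2 for 4. Of the LPS libraries, LPS replicate 2 was the lowest for 6 members and LPS replicate 3 the highest for 5. These counts were not taken over all tested genes, so they are not read as a trait of the members. The depth of the LPS libraries also differed, and its part in this spread was not tested.

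Pairs of transporters that belong to one family or one heterodimer were also compared as a ratio within each library, which no scaling of libraries can change. The exact two-sided permutation test of 3 against 3 libraries cannot give a p below 0.1. The log2 ratio of SLC7A1 to SLC7A2 (counts per kb) was -2.62, -2.44 and -2.73 in CON and -3.17, -3.93 and -3.74 in LPS. It was lower in all 3 LPS libraries, by 1.02 on average (exact permutation p = 0.1, and 0.3 after Benjamini-Hochberg adjustment over 6 ratios). The log2 ratio of SLC1A5 to SLC1A4 was -0.75, -0.59 and -0.34 in CON and 2.51, -0.14 and 4.85 in LPS. It was higher in all 3 LPS libraries, by 2.97 on average (exact permutation p = 0.1, adjusted 0.3), although LPS replicate 2 exceeded the nearest control by little. As the groups did not overlap for these ratios, leaving out any one library could not change the sign of either difference. The size could change, and the difference of SLC1A5 to SLC1A4 was 1.75 without LPS replicate 3 and 4.24 without LPS replicate 2.

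The other 4 ratios overlapped between the groups. SLC38A2 to SLC38A4 was 0.12, -0.01 and -0.43 in CON and 1.20, -0.37 and 2.72 in LPS, a difference of 1.29 (exact permutation p = 0.3). SLC38A2 to SLC38A3 differed by 1.13 (exact permutation p = 0.6). SLC7A5 to its partner SLC3A2 differed by -0.64 (exact permutation p = 0.4), and SLC7A7 to SLC3A2 by 0.13 (exact permutation p = 1). The adjusted values of these 4 ratios were 0.6 or higher.

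**Figure D4:**
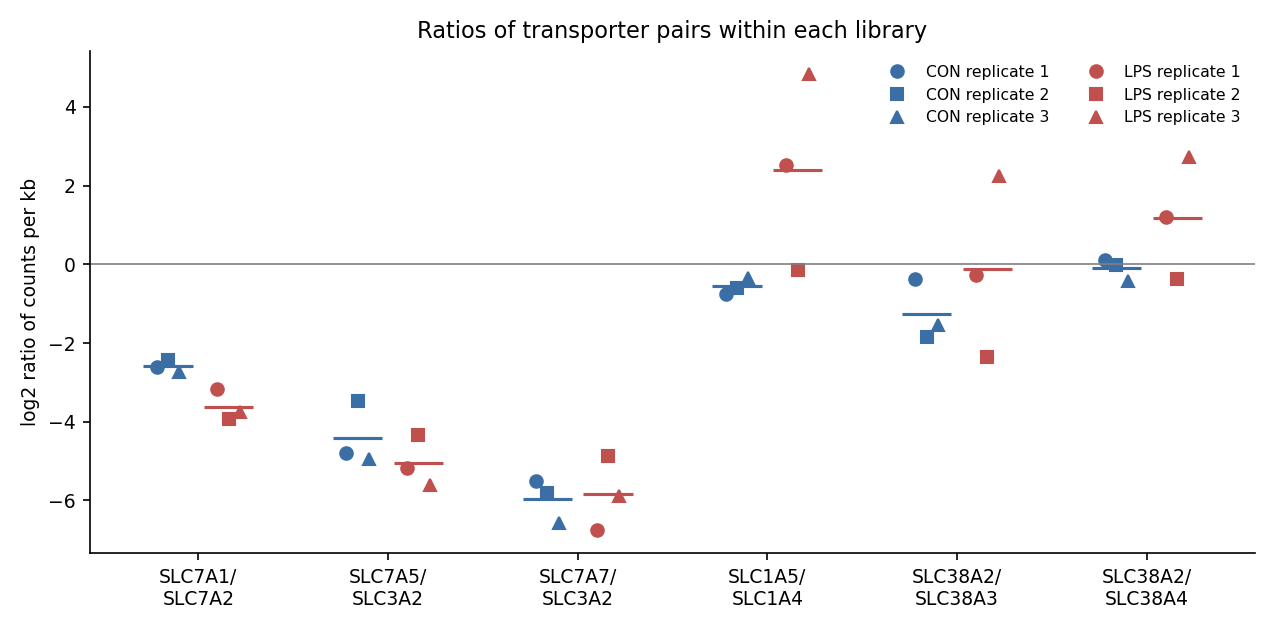
Log2 ratio of counts per kb of 6 pairs of transporters (x axis) within each CON (blue) and LPS (red) library, with the group mean as a bar and the replicate number as marker shape. The SLC7A1 to SLC7A2 ratio is lower in all LPS libraries and the SLC1A5 to SLC1A4 ratio higher, while the other 4 pairs overlap.

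Other amino acid transporters of the plasma membrane were read from a list of 32 symbols, of which 31 had a row and 11 were tested. Of the 11, the LPS group was higher for 8 and lower for 3 (median 0.57 on the log2 scale). By edgeR 0 were called with all 6 libraries, and 3 were higher and 1 lower at an unadjusted p below 0.05. Of all tested genes, 6.18% were higher and 6.33% lower at that p. The list was written with earlier results of these data known, so its counts are not read as a trait of its genes. SLC38A1, a system A carrier of glutamine, had 6.35, 6.09 and 8.21 CPM in CON and 23.3, 17.8 and 76.1 CPM in LPS. All LPS values were above all CON values, with a log2 fold change of 2.51 (SE 0.55, edgeR adjusted p = 0.129). DESeq2 called it (adjusted p = 0.000543), as did edgeR without LPS replicate 2 (adjusted p = 0.00654). SLC1A2, a glutamate transporter, had a log2 fold change of 1.92 (SE 0.59, edgeR adjusted p = 0.244), with 32.5, 5.73 and 22.6 CPM in LPS replicates 1, 2 and 3 and 3.91 to 7.71 in the CON libraries. It was called by DESeq2 (adjusted p = 0.0345) and by edgeR without LPS replicate 2 (adjusted p = 0.00885). SLC16A10, a carrier of aromatic amino acids, had a log2 fold change of 1.95 (SE 0.70, edgeR adjusted p = 0.305). DESeq2 also called SLC6A7, singled out after its values were seen, which was below the edgeR filter and had 98 counts in all libraries together. Over all its tested genes DESeq2 called 1.91% higher. Without LPS replicate 2 edgeR called 3 of the list higher (SLC38A1, SLC1A2 and SLC16A10) and 1 lower (SLC7A8, singled out after its values were seen), the latter at 3.59 CPM or less in every library. That fit called 3.76% of its tested genes higher and 3.45% lower.

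Of 12 lysosomal amino acid carriers and related lysosomal proteins, 9 were tested, with 3 higher, 6 lower and a median of -0.23 on the log2 scale. At an unadjusted edgeR p below 0.05, 1 was higher (SLC15A3) and 1 lower (SLC66A1), against 6.18% and 6.33% of all tested genes. None was called by edgeR or DESeq2. SLC15A3 had 27.1 ± 3.8 CPM in CON and 47.5 ± 8.4 in LPS (SD, n = 3 per group). SLC38A9, an arginine sensor of the lysosome, had 6.74 ± 1.75 and 4.25 ± 0.67 CPM (SD, n = 3 per group). Of 13 mitochondrial carriers, 9 were tested, with 6 higher, 3 lower and a median of 0.45 on the log2 scale. The 3 lower ones had an unadjusted edgeR p below 0.05 and LPS values below all CON values. These were the serine carrier SFXN1, its relative SFXN2 and the aspartate-glutamate carrier SLC25A13, with log2 fold changes of -1.26, -1.14 and -1.11 and edgeR adjusted p of 0.247, 0.281 and 0.316. No carrier was higher at an unadjusted edgeR p below 0.05. Of all tested genes, 6.33% were lower at that p and 9.80% were separated downward. The list was written with earlier results of these data known, so its counts are not read as a trait of the carriers. DESeq2 called 0 of the 9, and edgeR without LPS replicate 2 called SFXN1 (adjusted p = 0.0208), a fit that called 3.45% of its tested genes lower.

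Genes that respond to a shortage of amino acids, the targets and partners of the transcription factor ATF4, lay on both sides of 0. Of the 28 symbols, 25 were tested, with 12 higher, 13 lower and a median of -0.005 on the log2 scale. At an unadjusted edgeR p below 0.05, 4 were higher and 3 lower, against 6.18% and 6.33% of all tested genes. With all 6 libraries edgeR called 0 of them. CTH, the enzyme that makes cysteine from cystathionine, had 28.8, 57.7 and 25.2 CPM in CON and 110, 159 and 60.8 CPM in LPS. Its log2 fold change was 1.57 (SE 0.45, edgeR adjusted p = 0.221), and DESeq2 called it (adjusted p = 0.0308), where it called 1.91% of its tested genes higher. FGF21, a liver hormone of nutrient stress, had 69.1 ± 2.2 CPM in CON and 26.4 ± 17.6 in LPS (SD, n = 3 per group), and all LPS values were below all CON values (log2 fold change -1.40, edgeR adjusted p = 0.273). The glycyl-tRNA synthetase GARS1 had a log2 fold change of -0.99 (edgeR adjusted p = 0.305). Without LPS replicate 2, edgeR called 2 of the list higher (ATF3 and CEBPB) and 3 lower (ATF5, FGF21 and GPT2). All but FGF21 were singled out after their values were seen. That fit called 3.76% of its tested genes higher and 3.45% lower. The list was written with earlier results of these data known, so its counts are not read as a trait of its genes. ATF4 itself was not analysed here.

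Of 31 genes of amino acid sensing by mTORC1, 27 were tested, with 16 higher, 11 lower and a median of 0.16 on the log2 scale. At an unadjusted edgeR p below 0.05, 2 were higher and 0 lower, against 6.18% and 6.33% of all tested genes. Neither edgeR with 6 libraries nor DESeq2 called any. Without LPS replicate 2 edgeR called SESN3 lower, named here after its values were seen, where 3.45% of all tested genes were called lower. LAMTOR2, CASTOR2 and DEPDC5 had the smallest p, with log2 fold changes of 0.89, 0.96 and 0.91, and their groups overlapped. Of 17 genes that use arginine or glutamine, 14 were tested, with 10 higher, 4 lower and a median of 0.06 on the log2 scale. ARG1, the arginase of the urea cycle, had 285, 467 and 649 CPM in CON and 1107, 956 and 2639 CPM in LPS. All LPS values were above all CON values, as for the arginine carrier SLC7A2. The log2 fold change of ARG1 was 1.75 (SE 0.48, edgeR adjusted p = 0.218), and it was called by DESeq2 (adjusted p = 0.0134) and by edgeR without LPS replicate 2 (adjusted p = 0.0284). Those fits called 1.91% and 3.76% of their tested genes higher. AGMAT had a log2 fold change of -0.74 (edgeR adjusted p = 0.430) and OAT of 0.48 (edgeR adjusted p = 0.546).

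The genes whose log2 CPM followed that of SLC38A4 most closely over the 6 libraries were PEX3, KIFAP3, TUBGCP4, ABCA6 and GOLIM4, with Pearson correlations of 0.995 to 0.997. They were chosen as the 5 highest of all tested genes with a symbol, and the libraries they share fall into 2 groups. Like SLC38A4, all 5 were lowest in LPS replicate 1 and highest in CON replicate 1, and in all 5 the LPS values lay below all CON values. This likeness follows from how the 5 were chosen and is not a separate result. Of all tested genes, 9.80% were separated downward. Their log2 fold changes ranged from -1.71 (GOLIM4) to -0.33 (TUBGCP4).

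Markers of liver cell types were read beside these results. Of 9 tested hepatocyte markers 4 were higher and 5 lower. Among the lower ones ALB, which encodes the most abundant plasma protein, had a mean of 26640 CPM in CON and 15720 CPM in LPS. The 4 higher ones were APOA1, CPS1, SERPINA1 and HNF4A, with log2 fold changes of 0.02, 0.111, 0.225 and 0.605. The row of SERPINA1 held only 137 counts in all libraries together. The summed level of the list was 23350 to 24920 CPM per kb in the CON libraries and 15090, 16830 and 31980 in LPS replicates 1, 2 and 3. Of 7 tested neutrophil markers 6 were higher, and the summed level of that list was 8.85 to 18.8 CPM per kb in the CON libraries and 163.9, 70.0 and 423 in LPS replicates 1, 2 and 3. All 10 tested Kupffer cell and macrophage markers had a log2 fold change below 0, with sums of 885 to 1418 and 606 to 999 CPM per kb. Markers of red blood cells and platelets summed to 75.6 to 91.1 CPM per kb in the CON group and 100.5 to 361.5 in the LPS group. All 3 tested genes were higher, and they were the red cell genes HBB, HBM and ALAS2. No platelet marker was tested, as PPBP and GP9 were below the filter and PF4 and ITGA2B had no row. For T and NK cells 8 of 9 tested markers were lower, for B and plasma cells 5 of 6, for endothelial cells 6 of 7, and for cholangiocytes and stellate cells 6 of 9 were higher. That last list pools 2 cell types. Its higher genes were KRT7, EPCAM, SOX9, DES, ACTA2 and PDGFRB. The lower ones were COL1A1, COL3A1 and LRAT, with log2 fold changes of -0.266, -0.307 and -0.109. No marker with a row was at 0 in all 6 libraries. The part of these cell types in the transporter values was not tested.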

How the data were processed

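The RNA-seq libraries were the input fraction of polyadenylated liver RNA, 3 from the CON group and 3 from the LPS group. Deposited by the authors were raw read counts of 31908 Ensembl pig genes, with coordinates and exonic length. The submitters' processing notes name cutadapt 1.9.3 and HISAT2. They list a chicken and a human genome build and none of pig, so the build behind the printed coordinates is unknown. The counting program and the handling of strand and of reads that fit several genes were not stated in the sources at hand, whereas the kit marks strand. For CON replicates 1 and 2 the labels list 2 sequencing entries each, against 1 column each among the counts. Columns were matched by group and replicate number, and 0 sample columns were left unmapped. Symbols came from a table that covers 15029 identifiers. The MeRIP libraries were not analysed here.

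Counts were tested in R 4.3.3 with edgeR 4.0.16 (filterByExpr with a minimum count of 10, TMM, robust glmQLFit and glmQLFTest), with p-values adjusted over all tested genes. The study's methods state an unpaired comparison at 0.05. Calls needed an adjusted p below 0.05 and a fold above 1.5. SE was taken as the absolute log2 fold change over the square root of F. Ratios used counts plus 0.5. Fits were tested on simulated data. Alternatives were RLE factors, scaling to totals, other filters, DESeq2 1.42.0 on genes with any count, limma-voom (limma 3.58.1), a replicate block, other fold thresholds, counts plus 2 for the ratios and leaving out each library. Depth was 4348478 to 19967417 counts, and the smallest count of a member was 19.

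Lists of transporters, amino acid response, sensing and use, and cell markers were written from general knowledge, and members and lists were chosen with earlier results of these data known. Genes named outside the members were those called in each list or, failing 3, those with the smallest p, and the 5 most correlated with the member of smallest p. Exceptions are marked.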

Additional observations from a re-analysis of the deposited data

How the results depend on the processing

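The number of members called was 0 in edgeR with 6 libraries and 1 (SLC1A4, lower) without the filter on low counts, and 0 or 1 when single libraries were left out, the 1 arising without LPS replicate 2. It was 0 in the other alternatives. The number of members at an unadjusted p below 0.05 was 2 (1 higher, 1 lower), became 1 with scaling to total counts, 3 (1 higher, 2 lower) without the filter and in DESeq2, and lay between 0 (without CON replicate 1) and 4 (without LPS replicate 2) with single libraries left out. The number of all genes at that threshold moved too. It was 790 higher and 809 lower of 12774 with 6 libraries, and 1535 and 1718 of 13632 without LPS replicate 2. Without CON replicate 1 it was 422 and 444 of 12487, without the filter 1384 and 1366 of 23529, and in DESeq2 1057 and 845. Over all genes the count of calls was 7, and became 12 with scaling to total counts, 885 without the filter, 0 with at least 10 counts in every library, 418 in DESeq2, 2 in limma-voom, and 0 to 982 with single libraries left out (0 without any one CON library, 1 without LPS replicate 1, 982 without LPS replicate 2 and 58 without LPS replicate 3). Libraries with the same replicate number did not stand out (correlations of deviations of -0.239, 0.219 and 0.0289 for numbers 1, 2 and 3). Those with unlike numbers ran from -0.251 to 0.22. With 3 libraries per group these values cannot exclude a pairing. The replicate block gave 51 calls (42 higher and 9 lower) and called none of the members. With the block, as in limma-voom, 2 members were lower and 0 higher at an unadjusted p below 0.05. Of all 12774 tested genes, 876 were lower and 617 higher with the block, and 1040 lower and 601 higher in limma-voom. SLC7A2 was no longer past that threshold (0.83 with the block and 0.82 in limma-voom), while SLC1A4 was (-2.33 and -2.50). The cause of these changes was not tested.

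Of 130 fold changes of members under alternatives, 120 kept their direction and side of the threshold, 2 passed the threshold (SLC1A4 at -1.65 without the filter and -3.43 without LPS replicate 2) and 8 changed sign. SLC7A1 was -0.02 with 6 libraries, 0.018 with RLE factors and 0.017 in DESeq2, and from -0.53 to 0.32 with single libraries left out. With single libraries left out, SLC3A2 ran from -0.098 (without LPS replicate 1) to 0.544 and SLC38A2 from -0.507 (without LPS replicate 3) to 1.078. In the same way the log2 ratio difference of SLC7A7 to SLC3A2 ran from -0.359 (without LPS replicate 2) to 0.588, with -0.184 without CON replicate 3, and that of SLC38A2 to SLC38A3 from -0.053 (without LPS replicate 3) to 2.244. Scaling to totals moved the median of all genes from 0.01 to -0.12, and SLC7A2 to 0.75. The low counts of SLC7A7 and of SLC1A4 in 2 LPS libraries limit the precision of their values.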
